A study of Mus musculus with 4 samples.

Results

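Rab proteins are small GTPases, the largest family of regulators of membrane traffic. Each cycles between a GTP-bound form that sits on a particular membrane and recruits effectors, and a GDP-bound form that is drawn back into the cytosol. Guanine nucleotide exchange factors (GEFs) load GTP, GTPase-activating proteins (GAPs, most of them with a TBC domain) end the active state, and prenyl groups added to the C-terminus anchor the protein. In macrophages, Rab proteins guide endosomes, the maturation of phagosomes, lysosome-related organelles and secretion.

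Open chromatin near the Rab genes was examined by ATAC-seq, in which a transposase cuts accessible DNA, in wild-type (WT) mouse bone marrow-derived macrophages (BMDMs). Marrow cells of mice aged 8 to 12 weeks on a C57BL/6 background were differentiated for 6 days with L929 supernatant, a source of M-CSF, and received either no stimulus (the control group, 2 libraries) or 20 ng/ml of IL-4 for 1 hr (the IL-4 group, 2 libraries). IL-4 is the cytokine that activates the transcription factor STAT6 in alternative macrophage polarization, and the comparison asks how accessibility changed at this early time. Merging the peaks of the 4 libraries wherever they shared 1 bp or more gave 60710 regions. A region was assigned to the Rab family if the gene name given to its highest peak, that of the nearest transcription start site (TSS), was Rab followed by a number. This gave 173 regions of 51 Rab genes, among 16244 genes with a region. Heights below are the deposited peak scores, read as −log10 of the q-value. They measure the evidence for a peak and are not read counts, so a change in height is not a change in accessibility of that size. Values are given in the order of replicate 1 and replicate 2, and overlap between the groups is described on these heights, whereas log2 changes are from normalised heights. Cultures were bulk samples, so fewer cells with an open site and a less open site in each cell cannot be told apart.

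The control libraries held 129 and 138 Rab peaks, or 0.285% and 0.329% of all their peaks. The IL-4 libraries held 128 and 116, or 0.305% and 0.294%. The mean was 133.5 ± 6.36 (SD, n = 2) in control and 122 ± 8.49 (SD, n = 2) after IL-4, with a two-sided exact permutation p of 0.33, the smallest p that 2 against 2 libraries can give. The second IL-4 library had the fewest peaks and the lowest heights of the 4. Of 7 macrophage markers, 5 had a promoter peak in all 4 libraries (Adgre1, Spi1, Cd68, Mertk and Fcgr1). The other 2, Csf1r and Itgam, had peaks in all 4 libraries but none at the promoter. Of 17 markers of other marrow-derived cells, 15 had no promoter peak in any library, though some of them, such as Ms4a1 and Klf1, had peaks outside promoters. S100a8, a neutrophil gene, had a promoter peak in all 4 libraries (6.63 and 6.18 in control, 6.62 and 2.49 after IL-4).

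Sequences are shown for a few of the Rab regions described below. None of these regions passed the adjusted test for a difference between the groups. The first 3 are introns among the Rab regions with the lowest p for a difference between the groups, and the letters in capitals mark matches to motifs searched on both strands. The motifs were TTCNNNNGAA (the spacing bound by STAT6), TTCNNNGAA (the spacing of other STAT proteins), TGACTCA (AP-1), GAGGAAGT (PU.1) and CACGTG (an E-box). All are the plus strand of mm10, read from GRCm38.p6, and the Rab31 and Rab8b sequences are the central 300 bases of their regions.
Rab31 intron 1, chr17:65730432-65730731: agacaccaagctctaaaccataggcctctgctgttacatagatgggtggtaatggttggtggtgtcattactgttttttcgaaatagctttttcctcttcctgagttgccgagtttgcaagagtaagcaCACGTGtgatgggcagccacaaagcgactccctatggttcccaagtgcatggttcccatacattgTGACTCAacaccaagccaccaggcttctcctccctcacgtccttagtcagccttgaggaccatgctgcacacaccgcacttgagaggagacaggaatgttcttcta
Rab43 intron 1, chr6:87806145-87806349: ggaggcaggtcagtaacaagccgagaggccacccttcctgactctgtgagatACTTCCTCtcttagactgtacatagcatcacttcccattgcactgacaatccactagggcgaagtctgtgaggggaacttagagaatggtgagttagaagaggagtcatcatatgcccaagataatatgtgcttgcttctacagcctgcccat
Rab8b intron 1, chr9:66877570-66877869: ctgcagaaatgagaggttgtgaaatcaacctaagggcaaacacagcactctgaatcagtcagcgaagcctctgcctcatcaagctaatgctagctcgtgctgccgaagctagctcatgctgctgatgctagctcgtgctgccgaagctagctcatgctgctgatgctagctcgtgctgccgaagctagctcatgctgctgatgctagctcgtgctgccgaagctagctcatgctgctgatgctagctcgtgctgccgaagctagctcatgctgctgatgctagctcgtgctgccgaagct
The Rab31 intron held an AP-1 match and an E-box, the Rab43 intron held a PU.1 match in the reverse orientation, and the Rab8b intron held none of the 5 motifs. The Rab8b sequence was a tandem repeat, in which 77.1% of bases were the same as the base 38 positions further on, whereas the best such share over shifts of 10 to 100 positions was 31.5% in the Rab31 sequence and 32.4% in the Rab43 sequence. Short reads from repeat copies are hard to place, and the part this played in the heights at Rab8b was not tested.

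Of the regions with a promoter next to a named Rab, Rab11b and Rab7 are shown as the 250 bases upstream of the TSS, from the RefSeq promoter table for GRCm38.p6, on the minus strand on which both genes lie. The table held 44 of the 51 Rab genes.
Rab11b upstream, chr17:33760487-33760736: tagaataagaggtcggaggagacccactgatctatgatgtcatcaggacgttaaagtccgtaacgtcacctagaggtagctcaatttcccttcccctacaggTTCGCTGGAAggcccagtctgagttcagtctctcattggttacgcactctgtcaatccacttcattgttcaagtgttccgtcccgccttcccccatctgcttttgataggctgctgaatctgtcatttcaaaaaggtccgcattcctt
Rab7 upstream, chr6:88045271-88045520: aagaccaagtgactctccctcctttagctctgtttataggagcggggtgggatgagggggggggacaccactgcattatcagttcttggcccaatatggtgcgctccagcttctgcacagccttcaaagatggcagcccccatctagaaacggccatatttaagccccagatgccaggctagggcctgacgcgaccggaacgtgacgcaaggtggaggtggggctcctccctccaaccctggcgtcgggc
The Rab11b promoter was the only 1 of 42 Rab promoter regions whose central 300 bases held the STAT6 spacing, as TTCGCTGGAA on this strand. The Rab7 promoter held no match to any of the 5 motifs.

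STAT sites are shown, as up to 30 bases of the plus strand around the match, for the Rab15 region of lowest p and for regions with a peak in both IL-4 libraries and none in control. The Rab15 region held both STAT spacings. None of the 3 Rab regions with a peak in both IL-4 libraries and none in control held the STAT6 spacing, against 34.4% of all such regions. The Rab15 5′ UTR region among them held neither spacing. Other Rab regions that hold STAT letters are counted with the motifs and are not shown.
Rab15 site, STAT6 spacing, chr12:76813820-76813849: tctggctttgTTCTGAGGAAaaggtacaca
Rab15 site, other STAT spacing, chr12:76813669-76813697: cacaccgtccTTCCAGGAAaaggaagaga
Rab11a-assigned site, other STAT spacing, chr9:64603310-64603338: aatcatcattTTCCAAGAActggacagta
Rab44-assigned site, other STAT spacing, chr17:29171242-29171270: ctcctgggatTTCCTAGAAcctccctcat

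The Rab regions lay more often in and around genes than regions did in general. Promoters made up 42 regions (24.3%, against 18.8% of all regions), introns 87 (50.3% against 40.2%) and intergenic DNA 35 (20.2% against 35.8%), and the others were 5 in 3′ UTRs, 2 in 5′ UTRs and 2 at transcription termination sites. A peak was present in all 4 libraries in 81 Rab regions (46.8%, against 41.9% of all regions), while 42 Rab regions had a peak in 1 library only. Promoters were the steadiest class, with 32 of 42 in all 4 libraries (76.2%, against 69.4% of all promoter regions), compared with 34 of 87 introns and 12 of 35 intergenic regions. The nearest-TSS rule does not tie a region to its gene. By the RefSeq annotation, 100 of the 173 regions had their centre inside a transcript of the Rab gene they were named for, 18 lay only inside another gene and 55 lay in no transcript. In 20 regions the distance to the named TSS was over 50 kb.

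Rab31 had the most regions, 12, with 7 of them found in every library. Rab11a followed with 9 regions (3 in all 4 libraries), and Rab8b and Rab18 had 8 each (5 and 3 in all 4), against a median of 3 regions per Rab gene and 2 per gene overall. All 12 Rab31 regions lay within the gene, whereas 6 of the 9 Rab11a regions lay in introns of the neighbour Megf11. In 8 Rab genes no region had a peak in all 4 libraries, namely Rab19, Rab23, Rab26, Rab27a, Rab37, Rab3b, Rab42 and Rab44. Of these, Rab26, Rab27a, Rab37 and Rab3b act in regulated secretion, Rab23 is known from Hedgehog signaling, and Rab44 is a large member of the family found in granulocytes and mast cells.

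None of the 81 Rab regions with a peak in all 4 libraries passed the limma test after Benjamini-Hochberg adjustment over all 25442 such regions (0.0236% of all regions passed in either direction, 0.0157% higher and 0.00786% lower). At an unadjusted limma p under 0.05, 3 Rab regions were higher after IL-4 (3.7%, against 4.12% of all regions) and 6 were lower (7.41%, against 4.15%), or 9 of 81 against 8.28% in either direction. Without control replicate 1 the lower count was 2 (2.86% of all regions), and without any other single library it was 7 to 9 (3.03% to 4.48% of all regions). When the heights were median-centred in place of quantile-normalised, 5 were higher (5% of all regions) and 6 lower (3.64%). When they were not scaled at all, 1 was higher (1.14% of all regions) and 11 lower (7.43%). The estimate of the log2 change was below 0 in 50 Rab regions (61.7%, against 50.1% of all regions) and above 0 in 31. The median was -0.13, whereas the median over all regions was -0.00065. Without scaling, the estimate was below 0 in 66 and above 0 in 15, and the medians were -0.32 for Rab regions and -0.21 for all regions. After normalisation, both IL-4 heights lay above both control heights in 10 of the 81 (19.2% of all regions) and below them in 22 (18.6% of all regions). On the deposited heights the counts were 5 (8.83% of all regions) and 30 (29.3% of all regions).

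Of the 50 Rab estimates below 0, 34 lay outside promoters, as did 9111 of the 12739 estimates below 0 over all regions. Of the 32 Rab promoter regions, 16 were above 0 and 16 below, whereas 54.2% of all 7919 promoter regions were above 0. The median log2 change was 0.01, against 0.04 over all promoter regions. Among the other 49 Rab regions, 34 were below 0 (69.4%, against 52% of 17523 such regions in the genome) and 15 above. Their median was -0.19, against -0.02 over all such regions. After normalisation, both IL-4 heights outside promoters were below both control heights in 15 Rab regions (20.2% of all such regions) and above them in 3 (18.9%). Among Rab promoters 7 lay below and 7 above (15% and 20.1% of all promoter regions). On the deposited heights, 20 lay below and 2 above outside promoters (30.9% and 9.2% of all such regions). At Rab promoters 10 lay below and 3 above on those heights (25.7% and 8.01% of all promoter regions). The difference between the classes was not tested, since regions are not replicates. Classes are those of the peak annotation, so regions of Rab7 and Rab15 that lie at a RefSeq TSS count as outside promoters.

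**Figure D1:**
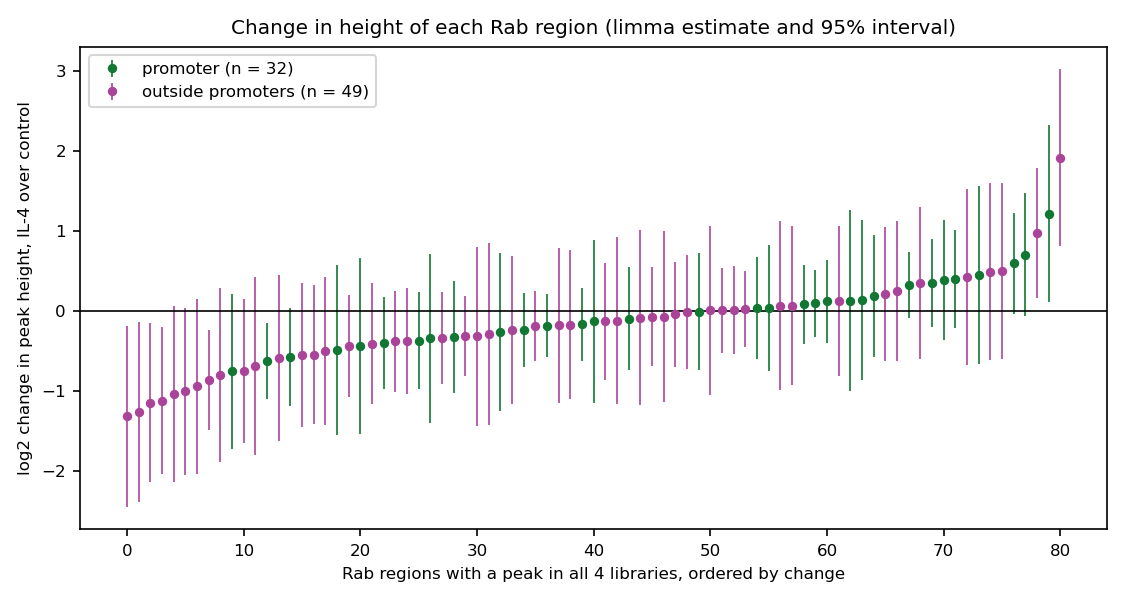
Estimated log2 change in peak height (IL-4 over control, y axis) of each of the 81 Rab regions with a peak in all 4 libraries, ordered by the estimate along the x axis, with 95% intervals from limma; green points are the 32 promoter regions and purple points the 49 others. Estimates run from -1.32 (an intron of Rab31) to 1.91 (an intron of Rab15 by the peak annotation), and the lowest of them are mostly purple.

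**Figure D2:**
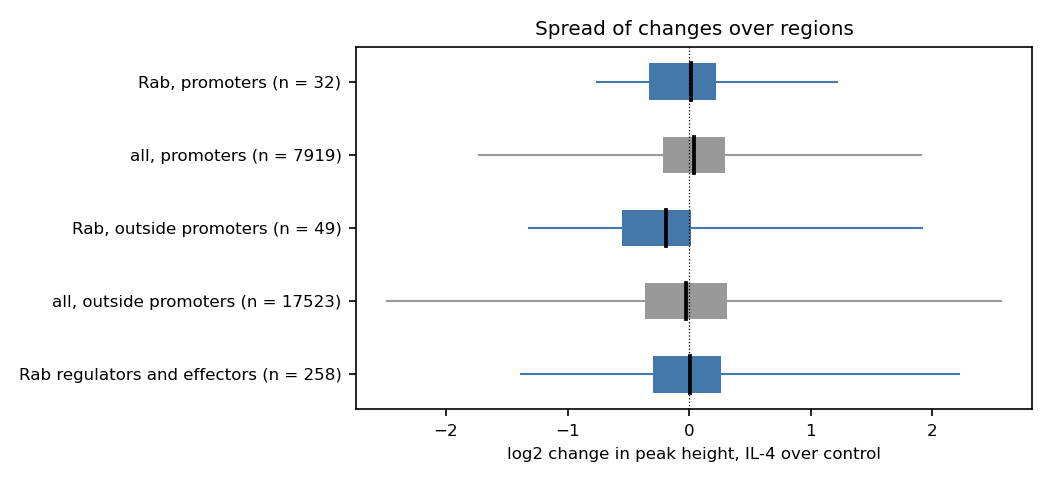
Spread of the log2 change in peak height over regions (x axis) for Rab and all regions, split by promoter, and for Rab regulators and effectors; the black tick is the median, the bar the middle 50% of regions and the line the full range. The bar of Rab regions outside promoters lies to the left of the others, with a median of -0.19.

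Among the Rabs of early endosomes, the Rab5 proteins organize these endosomes and young phagosomes, and their promoters were open in each library. At the Rab5a promoter (chr17:53478700-53479581) the height was 28.5 and 34.2 in control and 38.9 and 33.7 after IL-4. The Rab5b promoter gave 41.3 and 36.3 in control and 40.2 and 25.3 after IL-4, and the Rab5c promoter gave 32.8 and 21.1 against 27.5 and 23.6. The deposited heights of the groups overlapped at all 3 promoters, and after normalisation both IL-4 values of Rab5a lay above both control values. The limma log2 changes were 0.32, -0.18 and 0.09 (adjusted p of 0.72 to 0.96), and that of Rab5c was -0.05 without scaling.

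Rab31, which acts in transport between the trans-Golgi network and endosomes, had the most regions tested, 7. Of these, 5 had estimates below 0, against 52% of all regions outside promoters. In the intron 1 region at chr17:65730429-65730734, whose sequence is given above, the height was 23.4 and 27.6 in control and 14.5 and 10.1 after IL-4. Both IL-4 values lay below both control values, and the limma log2 change was -0.86 (SE 0.31, unadjusted p = 0.00795, adjusted p = 0.40). A second Rab31 intron region, at chr17:65768481-65768756 and 4125 bp from the TSS, gave 12.5 and 4.16 in control and 2.34 and 2.83 after IL-4, a log2 change of -1.32 (SE 0.57, limma adjusted p = 0.54). There too the groups did not overlap, but the controls differed widely, and the log2 change was -0.64 without control replicate 1, -2.02 without control replicate 2 and -0.93 without IL-4 replicate 1. The 5′ UTR region next to the TSS gave 11 and 7.76 against 4.62 and 5.87 (log2 change -0.59), and the intron region 34971 bp from the TSS gave 21.3 and 20.9 against 15.0 and 13.3 (-0.38). The change was not shared along the gene, since 2 of the 7 Rab31 regions had estimates above 0, among them the neighbour of the first at chr17:65729965-65730239, with 8.03 and 9.85 in control and 14.2 and 6.35 after IL-4.

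Rab21, which guides integrin endocytosis, had 2 neighbouring promoter regions. The one at the TSS was low in every library, at 5.45 and 2.58 in control and 3.77 and 5.09 after IL-4. The other, centred 393 bp upstream of the TSS (chr10:115315862-115316106), had peaks of 6.22 and 7.76 in control and none after IL-4. A Rab21 intron region gave 16.6 and 7.88 against 7.53 and 3.24 (log2 change -1, limma adjusted p = 0.62). No promoter region carried the name of Rab22a, but the region over its RefSeq TSS, named in the files for Ppp4r1l-ps, was open in all 4 libraries (22.4 and 24.2 in control, 24.3 and 13.5 after IL-4).

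**Figure D3:**
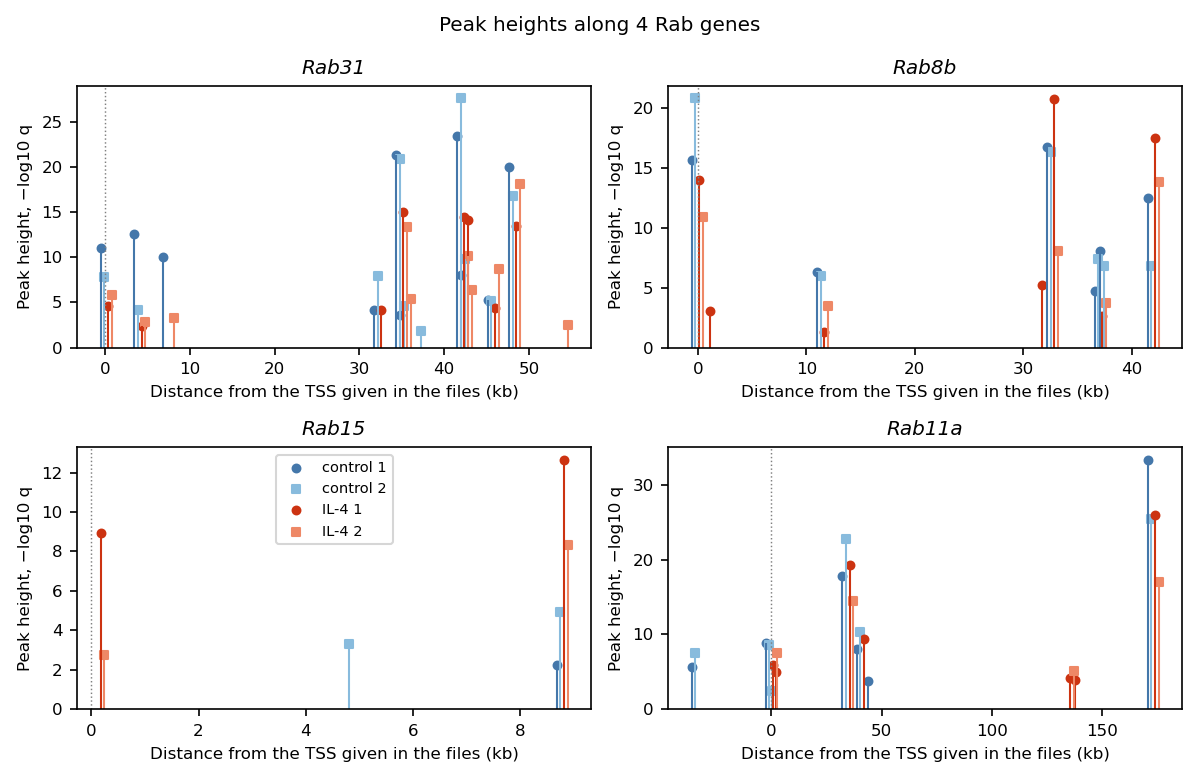
Peak height (y axis, −log10 q) of every peak region named for Rab31, Rab8b, Rab15 and Rab11a against its distance from the TSS given in the files (x axis, kb; points of the 4 libraries are set slightly apart). Blue marks control and red IL-4 libraries; at Rab31 the control points reach 27.6 at about 42 kb, where the IL-4 points reach 14.5, and at Rab15 the IL-4 points are the higher ones.

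In the group that acts in recycling and delivery to the plasma membrane, the lowest p of all Rab regions belonged to Rab15, known as a regulator of receptor recycling. In the region at chr12:76813628-76813921 the height was 2.22 and 4.93 in control and 12.6 and 8.31 after IL-4. Both IL-4 values lay above both control values. The limma log2 change was 1.91 (95% interval 0.81 to 3.02, unadjusted p = 0.00104), which did not pass after adjustment (adjusted p = 0.24). Without control replicate 1 the log2 change was 1.21, with an unadjusted p of 0.054 in limma. The files place this region in intron 1, 8776 bp from the TSS of the longer transcript, but by RefSeq on GRCm38.p6 its centre lies 82 bp from the start of a shorter Rab15 transcript. The other open Rab15 site after IL-4 was the 5′ UTR of the longer transcript (chr12:76822294-76822543), with heights of 8.91 and 2.72 after IL-4 and no peak in control. The only remaining Rab15 region was a single peak of 3.30 in a control library.

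Rab11 proteins direct recycling endosomes. The Rab11b promoter (chr17:33760268-33760743) gave heights of 38.8 and 30.8 in control and 20.6 and 20.5 after IL-4. Control values lay above IL-4 values without overlap, and the limma log2 change of -0.63 (SE 0.24, adjusted p = 0.43) was the lowest of the 17 named promoters tested. At Rab11a the promoter was low in every library (8.87 and 8.57 against 5.89 and 7.48). The highest Rab11a-named region was in Megf11, 173221 bp from the Rab11a TSS (33.4 and 25.4 against 26.0 and 17.0, log2 change -0.32).

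Rab8a and Rab8b guide vesicles to the plasma membrane. At Rab8b the intronic repeat shown above (chr9:66877503-66877937) gave 12.4 and 6.82 in control and 17.5 and 13.8 after IL-4, a log2 change of 0.97 (SE 0.41, limma adjusted p = 0.51) and 0.64 without control replicate 2. Another intron region of the same gene (chr9:66908121-66908340) was lower after IL-4, with 6.28 and 5.96 in control and 1.33 and 3.47 after IL-4 (log2 change -1.26, adjusted p = 0.55). Both differences were without overlap between the groups, and 4 of the 5 Rab8b regions tested were below 0. The promoter of Rab8b gave 15.7 and 20.8 against 14 and 10.9, and that of Rab8a gave 37.6 and 27.4 against 24.9 and 28.1, with log2 changes of -0.33 and -0.17.

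Rab13, which acts in exocytosis and at cell junctions, had 1 region under its name, a low promoter peak at chr3:90220660-90220890. The heights there were 4.38 and 2.5 in control and 8.70 and 5.05 after IL-4, a log2 change of 1.22 (SE 0.55, limma adjusted p = 0.55). A taller region over another RefSeq start of Rab13 (chr3:90213424-90213853), named for Rps27 in the files, gave 14.1 and 14.3 against 7.77 and 16.1 (-0.13). The Rab4b promoter gave 22.9 and 26.6 against 16.7 and 16.3 (-0.40), that of Rab10 gave 20.4 and 11.5 against 15.4 and 11.2 (-0.01), and that of Rab14 gave 10.6 and 9.71 against 16.1 and 2.71 (-0.34). The groups overlapped at Rab14 and did not overlap at Rab4b, while at Rab10 the control values enclosed 1 of the IL-4 values. In this group all 3 Rab14 regions tested and all 3 of Rab11a were below 0, none of them past the threshold. Elsewhere in the family both Rab12 regions and 3 of 4 Rab1 regions were above 0, and 1 of each without scaling.

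**Figure D4:**
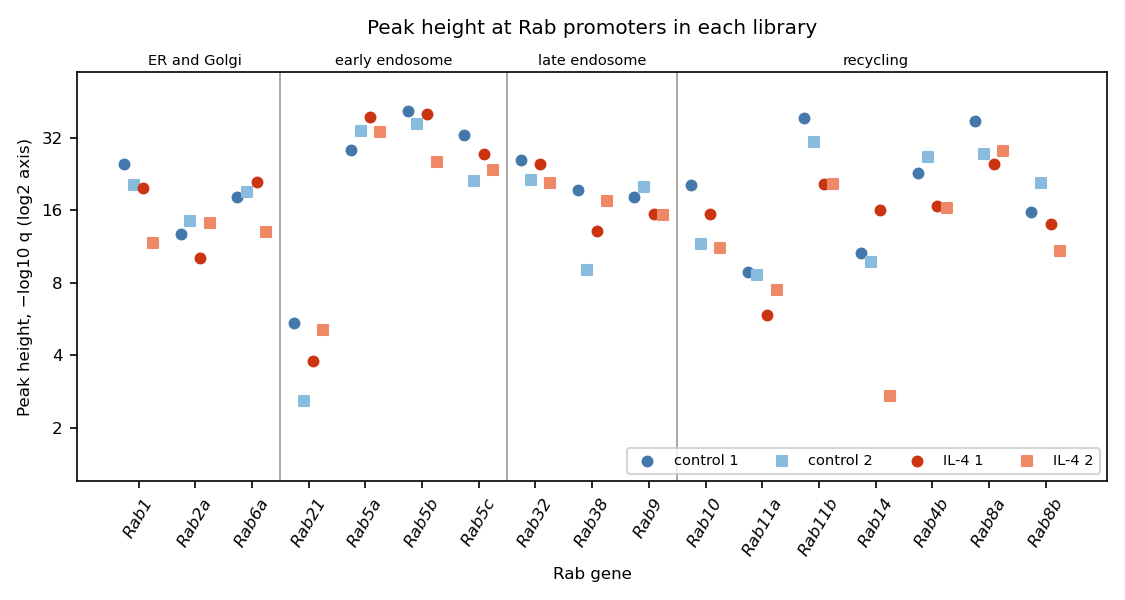
Peak height (y axis, −log10 q on a log2 scale) in each of the 4 libraries at the 17 named Rab promoters with a peak in every library, grouped by the compartment each Rab acts in; circles are replicate 1, squares replicate 2, blue control and red IL-4. Points of both groups overlap at most promoters, and at Rab11b both control points (38.8 and 30.8) lie above both IL-4 points (20.6 and 20.5).

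In the group of late endosomes, phagosomes and lysosome-related organelles, Rab7 drives the fusion of late endosomes and phagosomes with lysosomes. The files list its region at chr6:88045199-88045422 as intergenic, 31640 bp from a Rab7 TSS. In RefSeq the centre lies 40 bp upstream of a Rab7 TSS, inside the promoter sequence shown above. The height was 7.71 and 11.6 in control and 3.09 and 5.37 after IL-4. Both IL-4 values lay below both control values, and after normalisation the groups overlapped, with a log2 change of -0.94 (95% interval -2.03 to 0.15, limma adjusted p = 0.67). Rab9, which returns cargo from late endosomes to the Golgi, gave 18.1 and 20.0 at its promoter in control and 15.5 and 15.3 after IL-4 (-0.10).

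Rab32 and Rab38 build lysosome-related organelles. The Rab32 promoter gave 25.8 and 21.3 in control and 24.8 and 20.8 after IL-4, with a log2 change of 0.12 and a 95% interval of -0.40 to 0.64, and -0.04 without scaling. The Rab38 promoter gave 19.5 and 9.07 against 13.1 and 17.5 (0.39). Rab20, which takes part in phagosome maturation, had a promoter peak in 3 libraries (7.23 in a control library, 6.41 and 2.72 after IL-4). Its highest region was in its own intron (23.6 and 20.7 against 21.7 and 9.27).

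Rab1 and Rab2 act between the endoplasmic reticulum (ER) and the Golgi, and Rab6 within the Golgi. The Rab1 promoter gave 24.9 and 20.4 in control and 19.8 and 11.7 after IL-4 (-0.37), that of Rab2a gave 12.8 and 14.4 against 10.2 and 14.2 (0.04), and that of Rab6a gave 18.1 and 19 against 21 and 13 (0.04). The groups overlapped at Rab2a and Rab6a but not at Rab1, and the limma adjusted p-values were 0.80 to 0.99. Rab43, a Golgi-linked member, had the lowest p of this group, in the intron shown above. The height there was 13.8 and 16.5 in control and 5.79 and 5.96 after IL-4, without overlap, a log2 change of -1.12 (SE 0.46, limma adjusted p = 0.49). The promoter of Rab43 gave 15.1 and 11.8 against 15.7 and 10.7 (0.19, and -0.04 without scaling).

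Of the 25 regions named for secretory Rabs, 5 had a peak in all 4 libraries (against 41.9% of all regions). Among them was the promoter of Rab3a, a vesicle Rab of regulated exocytosis (21.5 and 19.9 against 22.7 and 24.5, log2 change 0.35). The promoter of Rab3d, of the same kind, gave 13.7 and 11 against 8.91 and 4.3 without overlap, and its log2 change of -0.75 (limma adjusted p = 0.71) was the lowest of the 32 Rab promoters tested. Rab27a, which docks secretory granules, had 2 low promoter regions, with heights of 3.48 in a control library and 4.23 and 6.21 after IL-4 in one, and of 4.53 in a control library and 3.19 in an IL-4 library in the other, nearer to the TSS. Rab12 and Rab28 gave promoter regions among those higher after IL-4. At Rab12 the heights were 21.8 and 11.6 in control and 21.3 and 21 after IL-4 (log2 change 0.60, limma adjusted p = 0.63), and only the second control lay apart from the other libraries. Without that library the estimate was 0.22. At Rab28 they were 9.67 and 13.0 against 18.5 and 13.0 (0.70, and 0.39 without control replicate 1), while an intron of the same gene gave 15.3 and 11 against 6.62 and 3.73 (-1.14, adjusted p = 0.54).

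In no compartment did a Rab region pass the adjusted test. The median log2 change was -0.11 over 18 early endosomal regions, -0.18 over 20 recycling regions, -0.10 over 13 late endosomal regions, -0.07 over 19 regions of the ER and Golgi group, -0.29 over 5 secretory regions and -0.01 over 6 others. Of the 26 promoters chosen by name, 19 had a promoter region and 17 had a peak there in all 4 libraries. Of these 17, 7 were above 0 (against 54.2% of all promoter regions) and 10 below, from -0.63 to 0.45. Without scaling 3 were above 0, as the estimates of Rab2a, Rab5c, Rab6a and Rab32 fell under it, and with median centring that of Rab10 was above 0. No promoter region was named for Rab4a, Rab7, Rab7b, Rab22a, Rab31, Rab34 or Rab35. At 5 of these a peak nevertheless lay at a RefSeq TSS, namely Rab7, Rab31 (its 5′ UTR region), Rab22a, Rab7b and Rab35, the last a low peak named for 1110006O24Rik (3.23 in a control library, 3.39 and 3.61 after IL-4).

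A peak in both IL-4 libraries and in neither control was found in 3 Rab regions (1.73%, against 2.53% of all regions). Beside the Rab15 5′ UTR, the region at chr9:64603077-64603360 was named for Rab11a from 134595 bp away and lay in Megf11 (4.11 and 5.05). The third lay in intron 12 of Cpne5 and was named for Rab44 (chr17:29171185-29171392, 5.34 and 5.05). In all 3 the weaker peak was low, at or below 5.05. The lowest was 2.72 at Rab15, where the other IL-4 library gave 8.91, against a lowest deposited score of 1.3. With any single library left out, 7 to 13 Rab regions met the rule (4.4% to 7.93%, against 4.6% to 10% of all regions).

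A peak in both control libraries and in neither IL-4 library was found in 8 Rab regions (4.62%, against 4.33% of all regions). Ordered by the weaker control peak, the highest were an intron of Rab8b (8.08 and 6.82), the upstream promoter region of Rab21 given above, an intergenic region named for Rab11a (5.62 and 7.46), an intron of Rab3c (10.8 and 5.40) and a Cpne5 intron named for Rab44 (6.96 and 4.71). The other 3, at Rab12, Rab32 and a Col4a2 intron named for Rab20, had a weaker control peak of 4.39, 2.88 and 2.66. In all 8 the weaker control peak lay below the pooled median score of 7.37, though some of the stronger control peaks lay above it. Low peaks can miss a list, so absence from a list does not show closed chromatin. With any single library left out, 12 to 22 Rab regions met the rule (7.32% to 13.4%, against 7.74% to 14.7% of all regions).

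Motif letters in the central 300 bases set Rab regions little apart from other regions. The STAT6 spacing was present in 15 of 173 Rab regions (8.67%, against 9% of all regions), the other STAT spacing in 13 (7.51% against 8.87%), AP-1 in 35 (20.2% against 18.9%), PU.1 in 22 (12.7% against 10.4%) and the E-box in 10 (5.78% against 6.43%). No Rab promoter region held the AP-1 letters, against 4.52% of all promoter regions. Among the 8 Rab regions with the STAT6 spacing and a peak in all 4 libraries, 4 were above 0 and 4 below, from -0.63 at the Rab11b promoter to 1.91 at Rab15, whereas 1285 of 1963 such regions in the genome were above 0 (median 0.20). Among the 15 with AP-1 letters, 12 were below 0, and of 5284 in the genome 3031 were. A match is a description of letters and not of binding.

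The regulators and effectors of Rab proteins were read from the same fit, from 128 gene names of which 119 had a region (608 regions, 258 with a peak in all 4 libraries). One region passed the limma threshold, in intron 2 of Tbc1d2b, a gene for a TBC-domain Rab GAP (1 higher of 258, against 0.0157% of all regions higher). The height at chr9:90244412-90244958 was 4.87 and 4.84 in control and 23.2 and 16.3 after IL-4, without overlap, a log2 change of 2.22 (SE 0.45, adjusted p = 0.0374). It lay 26069 bp from the TSS and held both STAT spacings, of which the STAT6 site is shown.
Tbc1d2b site, STAT6 spacing, chr9:90244760-90244789: acagcctgacTTCCACAGAAcctcactctg
The call was lost without any of control replicate 1, IL-4 replicate 1 or IL-4 replicate 2, while the log2 change stayed between 2.12 and 2.31 when any library was left out.

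The next 2 higher regions by p were at GAP genes as well. An intron of Rabgap1l gave 17.9 and 17.1 in control and 30.9 and 30.1 after IL-4 (log2 change 0.96, limma adjusted p = 0.23), and the 5′ UTR of Tbc1d30 gave 6.95 and 3.70 against 11.3 and 12.7 (1.47, adjusted p = 0.37). The groups did not overlap at either. Lower after IL-4, with the lowest p, were the promoter of Tbc1d23, a TBC-domain protein of endosome-to-Golgi traffic (39.2 and 30.8 against 16.3 and 22.8, -0.73), an intergenic region of Rabggta, which encodes a subunit of the enzyme that prenylates Rab proteins (14.1 and 11.9 against 5.69 and 3.07, -1.38), and an intergenic region of Tbc1d22a (13.8 and 12.0 against 7.76 and 3.27, -1.14). The limma adjusted p-values of these 3 were 0.37 to 0.54. The estimate at Tbc1d23 was -0.35 without IL-4 replicate 1, and that at Tbc1d22a was -0.67 without IL-4 replicate 2.

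Over the whole set of regulators and effectors the estimates were balanced, with 133 above 0 (against 49.9% of all regions), 125 below and a median of 0.00. At an unadjusted limma p under 0.05, 9 were higher (3.49%, against 4.12% of all regions) and 6 lower (2.33%, against 4.15%). The median was -0.01 over 102 GAP regions, 0.05 over 62 GEF regions, 0.03 over 83 effector regions and 0.11 over 11 regions of the prenylation and membrane extraction genes.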

How the data were processed

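The authors aligned ATAC-seq reads to mm10, called peaks in each library on its own with MACS2, removed blacklisted regions and annotated peaks with HOMER. The submitters' processing notes name BWA 0.7.10, SAMtools 0.1.19, MACS2 2.0.10 and HOMER 4.2. The deposited peak score was read as −log10 of the q-value. Its unit is not given in the sources used here and was inferred from the lowest score of 1.3. The score grows with depth, and no counts are held in the lists, so the depth is unknown and the authors' count tool was not run. The methods state a q of 0.01, yet some deposited peaks score below 2.

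Overlaps of 1 bp or more merged peaks of chromosomes 1 to 19, X and Y (the number of regions equalled that from bedtools 2.31.1), and a region took the highest score of each library. For regions found in every library, log2 heights were brought to common quantiles and compared between the groups in limma 3.58.1, under R 4.3.3 (trended eBayes, Benjamini-Hochberg over all regions, threshold 0.05). No pseudocount was needed for these regions. On simulated data for this comparison with 25442 regions, 99.5% of 200 planted log2 changes of 2.5 were recovered with 9 false calls. Smaller changes were not simulated. The highest Rab estimate was 1.91, so the recovery rate does not apply to changes of the size seen at Rab regions. The methods call the libraries biological replicates. The labels do not say that a replicate number marks a shared culture, so p-values measure the spread between these libraries.

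Members and lists were chosen with earlier results of these data known. Values are given for Rab regions past the limma threshold, the 5 of lowest p in each direction, all regions found in 1 group only, 26 Rab promoters chosen by name, the Rab genes with most regions or with none in all 4 libraries, and, of the regulators, the 3 of lowest p in each direction. Other Rab regions that are named (at Rab8b, Rab31, Rab21, Rab43, Rab7, Rab1, Rab12, Rab14, Rab3a, Rab3d, Rab11a and Rab20, and TSS regions named for neighbours) were chosen after their values were seen. Gene names follow the files, in which Rab1 is Rab1a. One gene of the marker list is not reported here.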

Additional observations from a re-analysis of the deposited data

How the results depend on the processing

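No Rab region passed the adjusted limma test under any alternative that kept all 4 libraries, with a lowest adjusted p of 0.14 to 0.53. None of the 10 Rab and 6 regulator regions of lowest p changed the sign of its estimate. These regions were chosen for a low p in the same data, which favours a stable sign, so their signs are no separate support. Of all 81 Rab regions, 16 changed sign without scaling and 3 with median centring, among them 4 and 1 of the 17 named promoters. The choices that moved results most were the scaling, the filter and the library left out. With median centring, 5 Rab regions were higher at an unadjusted p under 0.05 (5% of all regions), and the median change of Rab regions was -0.078. Without scaling between libraries, an alternative chosen after seeing the data, 1 was higher and 11 lower (1.14% and 7.43% of all regions), with medians of -0.32 over Rab regions and -0.43 outside promoters. With peaks required in at least 2 libraries, 5 of 131 were higher and 10 lower (5.43% and 5.85% of all regions, median -0.16). In that setting each missing height was replaced by the lowest height of any region, so a missing peak counted as a low one. With only scores above the pooled median, 0 of 41 were higher and 2 lower (3.46% and 3.59% of all regions), the medians were -0.085 and -0.22 outside promoters, 41 Rab regions were left in all 4 libraries and 1 had peaks in both IL-4 libraries only. With peaks within 500 bp merged, the medians were -0.17 and -0.23. The Tbc1d2b call was lost (0 calls) without scaling, without the variance trend and with at least 2 libraries, its log2 change running from 2 to 2.31, and above the pooled median the region was not tested, since its control heights lay under that score. The causes were not tested. Leaving out each library in turn gave 2 to 3 higher and 2 to 9 lower Rab regions, 0 to 1 calls among regulators, medians of -0.20 to -0.10 over Rab regions and -0.28 to -0.25 outside promoters, 7 to 13 regions with IL-4 peaks only and 12 to 22 with control peaks only, the last 2 because fewer libraries had to meet the rule. The lone library of a group was then assumed to vary like the other group.

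With the replicate block there were 0 calls among Rab regions and 1 among regulators, while calls over all regions went from 6 to 14. At an unadjusted limma p under 0.05, 3 Rab regions were higher and 6 lower (4.25% and 4.34% of all regions). Deviations of same-numbered libraries had a correlation of 0.0068, so the numbers were not taken as pairs, and the block changed no other call. A difference in Rab peaks per library of -11.5 kept its sign in every alternative (-19 to -5.5). However, the libraries also differed in all peaks, with 45250 and 41885 in control and 41978 and 39462 after IL-4. As shares of all peaks, Rab peaks overlapped between the groups.

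With 2 libraries a group, single regions rest on few values, the score is evidence for a peak rather than a measure of opening, and depth and peak calling differ between libraries in ways that cannot be told apart from the groups. Low peaks can miss a list by chance, and the nearest-TSS name does not tie a region to its gene.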

Other observations

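The RefSeq annotation of GRCm38.p6 held 59 Rab genes, of which 47 had a peak region at a TSS and 37 had one with a peak in all 4 libraries. The naming rule missed 8 of these genes, namely Rab25, Rab27b, Rab2b, Rab30, Rab34, Rab4a, Rab7b and Rab9b. A TSS region was nevertheless present at 2 of them under the name of a neighbour or an older symbol. The region over the Rab30 TSS (chr7:92741192-92741759), a Golgi Rab, was named for 4632427E13Rik and had heights of 51.3 and 46.3 in control and 53.6 and 47.3 after IL-4, above those of all 17 named Rab promoters. The region over the Rab7b TSS, named 5430435G22Rik, had peaks of 6.02 in a control library and 9.89 in an IL-4 library. In 9 Rab regions the distance to the TSS in the files and in RefSeq differed by over 1000 bp, among them the Rab7 and Rab15 regions.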
